A study of Mus musculus with 4 samples.

Results

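REST and Ring1b were compared bin by bin in mouse embryonic stem cells, using 2 of the 4 chromatin immunoprecipitation libraries of the series, those with the chip antibody REST and the chip antibody Ring1b. REST is a zinc finger protein that binds a long DNA element near many neuronal genes and recruits corepressors there, and in stem cells it is known for keeping neuronal genes silent outside neurons. Ring1b is the catalytic subunit of Polycomb repressive complex 1, which ubiquitinates histone H2A and is known in stem cells for covering the promoters and clusters of developmental regulators such as the Hox genes. REST reads its own sequence motif, whereas Polycomb complexes are found over CpG-rich promoters and can spread from them.

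Both libraries came from V6.5 cells, a line of C57BL/6-129 background grown on irradiated mouse embryonic fibroblasts. Before fixation the cells used for REST had spent 1 passage off these feeders, and those used for Ring1b 2 passages. The chromatin was sheared to about 500 bp, ligated DNA went through 18 PCR cycles, and the gel slice was 150 to 350 bp in the REST library and 150 to 300 bp in the Ring1b library. There was 1 library per antibody, so antibody, passage, gel slice and sequencing run cannot be told apart, no difference had a replicate check, and no input library was used here. The MCAF1 and H4K20me3 libraries of the same line (2 passages off feeders each, gel slices up to 300 bp and 350 bp) served as readouts on which no class was chosen. Both do enter the rule for bins enriched in all 4 libraries. Their levels given without such bins are therefore lowered by that filter. Bins are given by position and were not matched to genes, and the labelled cell type was not checked against marker genes.

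This pair was the closest of the series in depth and alignment, with a seed of 26 bases in both. On chromosomes 1 to 19 REST had 3063633 distinct reads and Ring1b 3023138, and REST was thinned to the Ring1b number. Repeated positions had taken 12.7% of REST reads and 6.33% of Ring1b reads. A covered 1-kb bin then held 1.38 reads of each library on average, a 10-kb bin 12.8 and a 100-kb bin 126.5.

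A bin was said to favour a library when that library had at least 2 times the reads of the other and the exact binomial interval of its share, drawn with an error of 1e-06, lay beyond 50%. A bin was said to hold both when each library stood at least 5, 3 or 2 times above its own background (for 1-, 10- and 100-kb bins), with a Poisson upper tail of at most 1e-06, and neither was favoured. The background was the mean over covered autosomal bins or, for 1-kb and 10-kb bins, the mean over the surrounding 1 Mb where that was larger. In 1-kb bins with the autosomal mean as background, the Poisson tail was a stricter limit than 5 times. The 5th percentile of the REST level in 1-kb bins holding both was 7.95 times its mean. The interval needs 21 reads even when all come from 1 library, and 0.868% of covered 1-kb bins, 45.5% of 10-kb bins and 98.3% of 100-kb bins reached that number. All ratios compare these 2 libraries.

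At 1 kb the genome was divided unevenly. Of 2183993 covered bins, 295 favoured REST (0.0135%), 4628 favoured Ring1b (0.212%) and 2127 held both (0.0974%). Bins favouring Ring1b were thus 15.7 times as numerous as those favouring REST. They also took more of their library, with 11.7% of all Ring1b reads against the 0.597% of REST reads that lay in bins favouring REST. At this scale only peaks could be placed in a class, because an average bin held too few reads. A looser interval, with an error of 1e-04, raised the number favouring REST to 580.

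**Figure D1:**
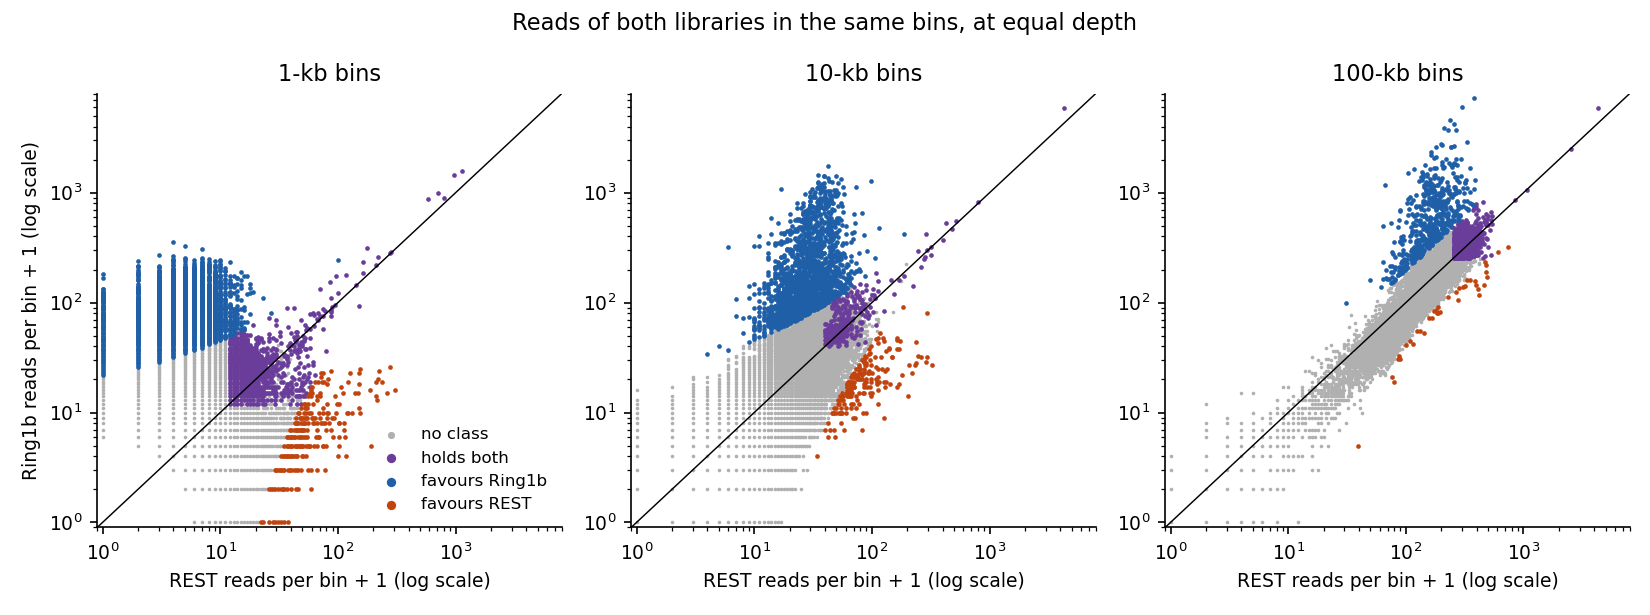
Reads per bin of REST (horizontal, log scale) and Ring1b (vertical, log scale), each plus 1, for covered 1-kb, 10-kb and 100-kb bins at equal depth. Each point is a pair of read numbers found in at least 1 bin (1-kb bins with fewer than 5 reads in all are not drawn), colours give the class, and the line marks equal numbers. The Ring1b-favoured bins form a cloud above the line at every size. REST-favoured bins number 295 at 1 kb (0.0135% of covered bins) and 39 at 100 kb (0.163%). Ring1b-favoured bins number 4628 (0.212%) and 523 (2.19%).

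The bins favouring REST were narrow, isolated peaks. Bins are named in the order of the smallest ratio that the interval with an error of 1e-06 allows, while the intervals printed are at 95%, so the printed bounds need not follow the same order. The first bin was chr8:14072001-14073000 (mm8), with 192 REST reads and 4 Ring1b reads, a ratio of 48 (95% interval 18.4 to 178). The next were chr4:139531001-139532000 with 303 and 15 reads (ratio 20.2, 12.1 to 36.5) and chr4:150448001-150449000 with 260 and 14 (18.6, 10.9 to 34.4). In all 3 the REST level was more than 100 times its autosomal mean, at 139, 219 and 188 times. Ring1b stood at 2.89, 10.8 and 10.1 times its own mean in the same bins, but the first of these levels rests on 4 reads and its 95% interval, 0.787 to 7.40 times, includes 1.

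Chromosome 4 carried 4 of the 10 named REST bins. Besides the 2 above, these were chr4:154703001-154704000 (216 REST reads and 12 Ring1b reads) and chr4:151643001-151644000 (210 and 13). The other named bins were on chromosomes 9, 15, 7, 14 and 19. Among them chr9:21700001-21701000 had 116 REST reads and 3 Ring1b reads (38.7, 12.9 to 190.2), and chr7:6014001-6015000 had 276 and 25 (11, 7.32 to 17.4). The last of the 10, chr19:4989001-4990000, still had 218 REST reads against 19. Over all 295 bins the median ratio was 10.8, the middle 50% of bins lay between 7.40 and 16.1, and 10 bins had 0 Ring1b reads, where a count of 0 allows up to 3.

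The bins favouring Ring1b had larger ratios, and they came in stretches. The first in the same order was chr11:96169001-96170000, with 357 Ring1b reads and 3 REST reads (Ring1b over REST 119, 40.4 to 579.8). It was followed by chr4:139103001-139104000 with 236 and 1 reads, chr2:115753001-115754000 with 268 and 2, and chr6:83668001-83669000 with 325 and 4. With 1 to 4 REST reads these ratios have wide intervals, and the last of them was 81.2 (31.4 to 299.99). Chromosome 4 thus carried leading bins of both kinds. Over all 4628 bins the median ratio of Ring1b to REST was 17.6, and 79.6% of bins reached 10 or more, against 54.9% of the bins favouring REST.

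Bins that held both had near-equal reads of the 2 libraries, with a lean to Ring1b. The rule keeps favoured bins out of this class, so near-equal reads are partly built in. In bins holding both the median ratio of REST to Ring1b was 0.80, and 90% of them lay between 0.378 and 1.63. Of the 2127, 1740 (81.8%) had a ratio between 0.5 and 2, and 308 had at most 0.5 without passing the interval. The median bin rested on 36 reads, so a moderate preference could not pass the interval in most of them. Examples outside the bins enriched in all 4 libraries were chr13:9011001-9012000, with 43 REST and 45 Ring1b reads (ratio 0.956, 0.614 to 1.48), chr6:39801001-39802000 with 42 and 45 (0.933, 0.598 to 1.45) and chr16:91423001-91424000 with 57 and 78 (0.731, 0.510 to 1.04). At chr9:75469001-75470000 REST led with 79 reads to 35 (2.26, 1.5 to 3.46), and at chr2:22473001-22474000 Ring1b led with 88 to 36. The number holding both was 354 when each library had to reach 10 times its background, and 4026 with the autosomal mean as the only background.

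Of the bins that held both, 236 were enriched in all 4 libraries, as were 241 of the 2183993 covered bins. The highest was chr17:39452001-39453000, with 1136 REST and 1569 Ring1b reads, where MCAF1 was 202 times and H4K20me3 322 times its mean. At chr2:98467001-98468000 the numbers were 280 and 287, and at chr5:3000001-3001000 they were 275 and 283. The ratios at these last 2 bins, 0.976 (0.825 to 1.15) and 0.972 (0.820 to 1.15), had intervals that included 1. The first of the named bins holding both, chr2:98465001-98466000 (87 and 82 reads), lay inside the same stretch of chromosome 2. No input library was used, so whether reads shared by all 4 libraries in such stretches reflect binding of either protein was not tested.

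REST-enriched bins were grouped by their REST level to show what each class contains. The same REST reads set the level and the class, and a favoured bin needs at least 21 reads, so the shares describe the classes and support no relation. Among the 3319 REST-enriched bins at 5 to 10 times background, 2 favoured REST and 48.9% held both (95% interval 47.2% to 50.6%). At 10 to 20 times, 10.1% favoured REST and 36.4% held both. At 20 to 40 times 52.7% favoured REST, and at 40 to 80 times 72.0% did (36 of 50). Above 80 times, 12 of 22 bins favoured REST and the other 10 held both, and these 10 were all enriched in all 4 libraries. The Ring1b level in the REST-enriched bins was 9.39 times its mean (median) in the weakest group, 5.78 in the next, 6.5 at 20 to 40 times, 8.67 at 40 to 80 times and 17.7 above 80 times, and it too enters the class rule.

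The Ring1b-enriched bins were grouped in the same way, and here too the rule builds in the rise of the favoured share with the level. At 5 to 10 times its background 3.28% of 9517 bins favoured Ring1b, at 10 to 20 times 16.1%, at 20 to 40 times 79.3% and at 40 to 80 times 98.9%. The median REST level in these groups was 4.33, 4.33, 3.61 and 2.89 times its mean, while the median H4K20me3 level was 4.28, 5.14, 5.71 and 6.28 times. H4K20me3, which entered neither the level nor the class, was thus higher at stronger Ring1b. The median MCAF1 level, which also entered neither, went the other way, at 3.23, 3.03, 2.42 and 2.22 times. In the 84 bins above 80 times the medians of REST, H4K20me3 and MCAF1 were 3.61, 7.99 and 2.62. Of these bins, 16 were enriched in all 4 libraries.

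Adjacent bins of a class were joined into runs to compare widths. REST-favoured bins formed 288 runs, of which 281 were a single bin and the longest covered 2 kb. Ring1b-favoured bins formed 1799 runs with a median width of 2 kb; 536 (29.8%) were at least 3 kb and 64 at least 10 kb wide. The wider runs held most of the class, since 63.5% of Ring1b-favoured bins lay in runs of 3 kb or more. Runs holding both were again narrow, with 1980 of 2042 a single bin. The longest of these, 6 kb on chromosome 2 (98463001 to 98469000) and 6 kb on chromosome 17 (39451001 to 39457000), were in the stretches enriched in all 4 libraries.

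The longest Ring1b run covered 27 kb of chromosome 11 (96095001 to 96122000), with 2676 Ring1b reads against 115 REST reads, a ratio of 23.3 (19.3 to 28.3). Runs of 24 kb (105467001 to 105491000) and 21 kb (71327001 to 71348000) followed on chromosome 2, with 2137 against 81 and 2544 against 67 reads. A 19-kb run on chromosome 17 (85516001 to 85535000) had the largest ratio of the 8 longest, 39.2 (30.8 to 50.8). In these 8 runs REST stood at 2.30 to 3.84 times its autosomal mean and Ring1b at 64.3 to 100 times. The contrast therefore came from very high Ring1b, and REST was not low there.

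**Figure D2:**
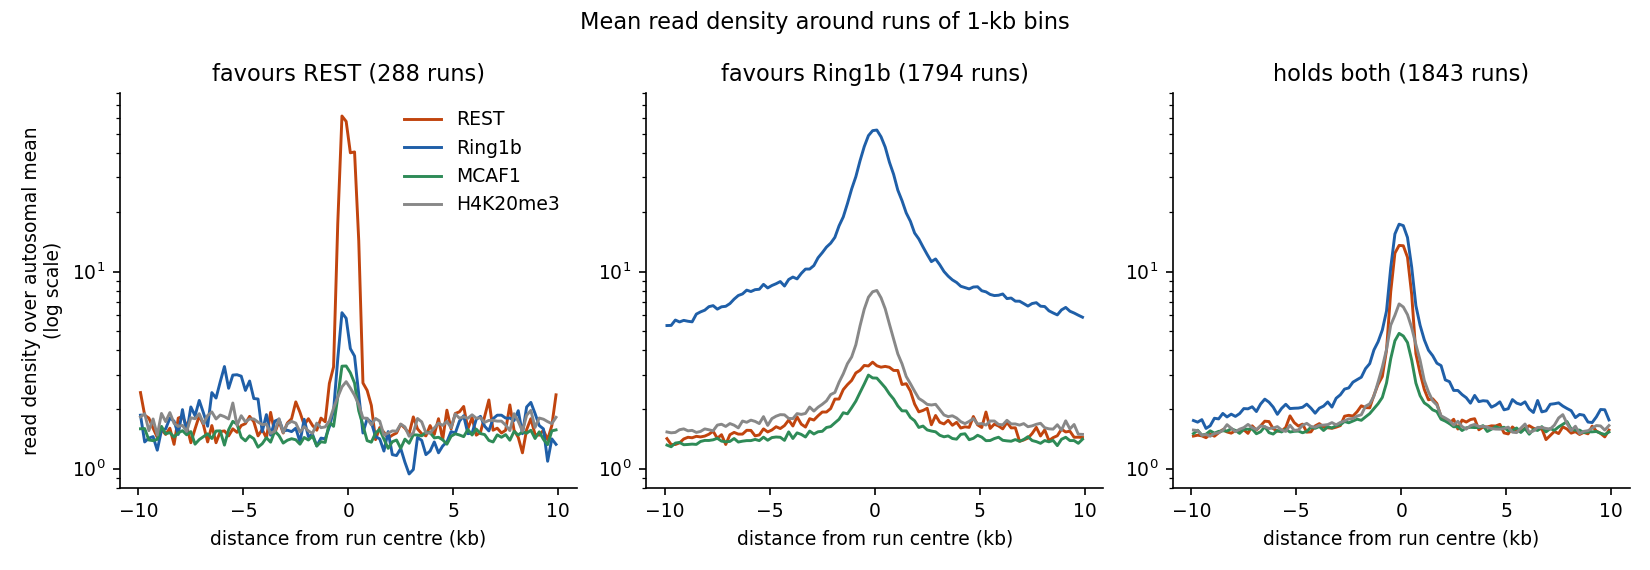
Mean read density of the 4 libraries (vertical, multiples of the autosomal mean, log scale) against distance from the centre of runs of 1-kb bins (kb), for the 3 classes without runs that contain a bin enriched in all 4 libraries. REST peaks are sharp and return to the flanking level within about 1 kb, Ring1b-favoured runs keep a raised Ring1b shoulder out to 10 kb, and in runs holding both the libraries peak together.

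Profiles across the runs gave the shape of the signal. The same reads chose the runs, so the profile widths in part restate the run widths above. Around REST-favoured runs the REST profile was 800 bp wide at 50% of its height and had fallen to 1.66 times the autosomal mean at 1 to 2 kb, the same as its flank at 5 to 10 kb (1.66). Around Ring1b-favoured runs the Ring1b profile was 2000 bp wide and stood at 20.2 times at 1 to 2 kb and 6.81 times at 5 to 10 kb. Pairs of REST reads on opposite strands peaked at an offset of 103 bp in REST-favoured runs, at 9.70 times their number at 300 to 390 bp. In Ring1b-favoured runs this excess of Ring1b pairs was 1.14 times. The less abundant library was narrow or wide with the class as well. In REST-favoured runs the Ring1b profile was 600 bp wide and its strand excess was 3.24 times. In Ring1b-favoured runs the REST profile was 3200 bp wide and its strand excess was 2.39 times, at an offset of 94 bp. The narrow and wide profiles thus went with the classes of runs, whereas the strand excess was larger for REST than for Ring1b in every class.

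In the 1843 runs that held both and had no bin enriched in all 4 libraries, the 2 profiles had the same width of 1200 bp. The highest points of REST and Ring1b lay a median of 100 bp apart, and 66.5% of runs had them within 200 bp of each other. The Ring1b strand excess was 1.66 times in these runs. The REST strand excess was 3.33 times at an offset of 108 bp, between that of the REST-favoured runs and the 2.39 times that REST reads had in Ring1b-favoured runs. MCAF1 and H4K20me3 peaked in the same runs, at 4.86 and 6.85 times their means.

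The distance between runs of different classes was described next. Of 288 REST-favoured runs, 13 (4.51%) had a Ring1b-favoured run within 10 kb and 69 (24.0%) within 100 kb. Runs holding both were within 10 kb of a Ring1b-favoured run in 6.61% of cases and of a REST-favoured run in 0.539%. At 100 kb these shares were 19.5% and 4.85%. For scale, 0.803% of covered 10-kb bins and 6.03% of covered 100-kb bins contain a 1-kb bin favouring Ring1b, but these windows are not the same as the distances. Whether the classes lie nearer to each other than other bins was not tested.

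**Figure D3:**
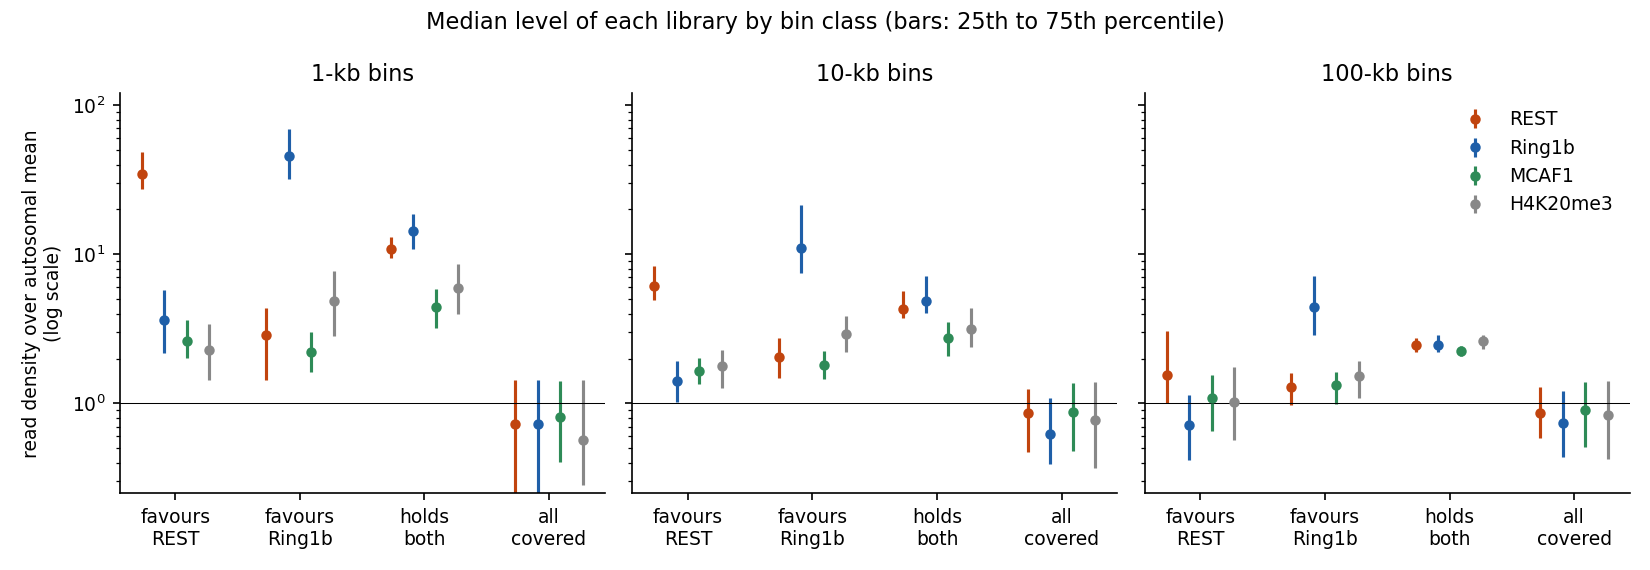
Median read density of each library (vertical, multiples of the autosomal mean, log scale) in bins of each class and in all covered bins, at 3 bin sizes; bars run from the 25th to the 75th percentile and end at 0.25 where a percentile is lower. REST and Ring1b chose the classes, whereas MCAF1 and H4K20me3 did not: the 1-kb H4K20me3 median is 4.85 in Ring1b-favoured, 2.28 in REST-favoured and 5.99 in bins holding both.

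MCAF1, a partner of the histone methyltransferase SETDB1, and H4K20me3, a mark of constitutive heterochromatin, were measured in the same bins. H4K20me3 stood apart between the favoured classes. Its density was 5.79 times the autosomal mean in 1-kb bins favouring Ring1b (5.76 to 5.83) and 2.49 times in bins favouring REST (2.40 to 2.59). By the enrichment rule 33.9% of Ring1b-favoured bins were H4K20me3-enriched and 0.339% of REST-favoured bins, against 0.469% of all covered bins. MCAF1 differed less, and in the other direction, at 2.45 times (2.43 to 2.47) and 2.93 times (2.84 to 3.02). Bins that held both had 7.99 times H4K20me3 (7.92 to 8.05) and 5.99 times MCAF1 (5.94 to 6.03). Without those enriched in all 4 libraries, a filter that uses these readouts, the values were 6.20 (6.14 to 6.26) and 4.46 (4.42 to 4.50). Every one of these means was above 1, in bins picked for high reads of another library. The direction of MCAF1 did not hold in larger bins. Its density was 1.88 times in 10-kb bins favouring Ring1b and 1.72 times in those favouring REST. At 100 kb the values were 1.32 and 1.12 times.

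At 10 kb the same division was seen with weaker ratios. Of 236591 covered bins, 198 favoured REST (0.0837%), 1872 favoured Ring1b (0.791%) and 273 held both (0.115%). The first for REST in the order used above was chr4:139530001-139540000, with 321 REST and 26 Ring1b reads (12.3, 8.27 to 19.2), then chr8:14070001-14080000 with 201 and 13 (15.5, 8.84 to 29.5). For Ring1b it was chr12:9600001-9610000, with 1083 Ring1b and 16 REST reads (67.7, 41.5 to 119), then chr13:40740001-40750000 with 1732 and 41 (42.2, 31.0 to 59.1). Both REST bins contain a 1-kb peak named above. With the libraries set to equal background in place of equal totals, 112 bins favoured REST, with a ratio of at least 4 it was 121, and with the looser interval 412. The number holding both was 28 at an enrichment fold of 5 and 2719 with the autosomal mean as the only background.

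A set of 4 long Ring1b stretches stood out at this scale. The 10-kb bins favouring Ring1b ran on for 140 kb on chromosome 15 (102730001 to 102870000), 130 kb on chromosome 6 (52080001 to 52210000), 130 kb on chromosome 11 (96060001 to 96190000) and 120 kb on chromosome 2 (74450001 to 74570000). The next longest run was 60 kb, on chromosome 7 (70190001 to 70250000). Ring1b reads exceeded REST reads 17.9 times (16.3 to 19.8), 18.8 times (17.2 to 20.7), 17.7 times (16.1 to 19.6) and 21.1 times (19 to 23.6) in the 4 stretches. As background, the 4 mouse Hox clusters are on these same chromosomes 6, 11, 15 and 2, but the stretches were not matched to an annotation. REST lay at 2.24 to 2.81 times its mean there, MCAF1 at 1.76 to 2.07 and H4K20me3 at 2.58 to 2.85. REST-favoured bins showed nothing of the kind, with 4 of 194 runs reaching 20 kb and none more.

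At 100 kb, 39 of 23896 bins favoured REST (0.163%), 523 favoured Ring1b (2.19%) and 998 held both (4.18%). The first for REST were chr7:6000001-6100000 with 416 REST and 116 Ring1b reads (3.59, 2.91 to 4.44), chr4:150400001-150500000 with 464 and 143 (3.24, 2.68 to 3.94) and chr14:62600001-62700000 with 410 and 131 (3.13, 2.56 to 3.84). The first for Ring1b were chr2:74400001-74500000 with 4607 Ring1b and 237 REST reads (19.4, 17.1 to 22.2), chr17:85500001-85600000 with 3886 and 208 (18.7, 16.2 to 21.6) and chr15:102800001-102900000 with 4238 and 255 (16.6, 14.6 to 18.9). Over all bins of each class the median ratio was 3.22 for Ring1b and 2.41 for REST. The rule for named bins passes over bins enriched in all 4 libraries, and so over chr11:96100001-96200000, where 6061 Ring1b and 297 REST reads gave 20.4 (18.2 to 23.0), and chr6:52100001-52200000, with 7326 and 378 (19.4, 17.5 to 21.5); these 2 were added after their values were seen.

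The REST preference at 100 kb was the least secure of these counts. Equal background in place of equal totals left 13 of the 39 bins, a ratio of at least 4 left 2, a ratio of at least 1.5 gave 99, the interval with an error of 1e-04 gave 149, and 61 were called when every aligned read was kept. For Ring1b a ratio of at least 4 left 188 bins. The count holding both was 191 without bins enriched in all 4 libraries.

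To describe what wide bins contain, 1-kb bins that were enriched in either library or favoured by one were left out, a step chosen after the data were examined. It takes out reads chosen for high numbers or an unequal ratio, so a loss of preference is built in and the values are a description only. In 100-kb bins favouring REST, the highest 1-kb bin held a median of 33.8% of the REST reads, and 30 of 39 bins contained a 1-kb bin favouring REST, against 1.13% of all covered 100-kb bins. The ratio of summed REST to Ring1b reads in the 39 bins went from 2.42 to 1.53 without the peaks, beside 1.2 over all bins treated alike, and 5 of 39 were still called. In 100-kb bins favouring Ring1b, 521 of 523 contained a 1-kb bin favouring Ring1b, against 6.03% of all covered bins. Ring1b over REST went from 4.39 to 1.11 there, and 12 of 523 were still called.

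Of the 39 bins of 100 kb favouring REST, 9 contained no 1-kb bin favouring REST; their median was 108 REST reads against 41 Ring1b reads, and MCAF1 was at 0.649 times its mean in them. In the 30 others the medians were 294 and 123.5 reads, and MCAF1 was at 1.34 times. The ratio of summed reads was alike, 2.44 in the 9 bins and 2.42 in the 30. Of the 16 bins with MCAF1 below its mean, 8 contained a 1-kb bin favouring REST.

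Of the 998 bins of 100 kb that held both, 807 were enriched in all 4 libraries, and the number holding both was 74 at an enrichment fold of 3. Median levels of REST and Ring1b were 2.45 and 2.47 times their means, and those of MCAF1 and H4K20me3 were 2.24 and 2.61 times. By the same rule MCAF1 was enriched in 84.9% of them, against 5.81% of all covered bins, and H4K20me3 in 91.8%, against 10.002%. In the 191 bins not enriched in all 4 libraries the medians of MCAF1 and H4K20me3 were 1.95 and 2.11 times. MCAF1 was enriched in 20.9% of these bins and H4K20me3 in 57.1%. Over all 998 bins the ratio of REST to Ring1b was close to 1, with a median of 0.985 and 90% between 0.669 and 1.28. In the 191 bins the median was 0.964, with 90% between 0.627 and 1.26. Favoured bins are kept out of this class by the rule, so a ratio near 1 is partly built in. The longest run covered 1200 kb of chromosome 10 (79900001 to 81100000), with 4820 REST and 4740 Ring1b reads (1.02, 0.977 to 1.06). Of the 998 bins, 38.3% contained a 1-kb bin holding both, against 7.56% of all covered 100-kb bins. The part of read density that all 4 libraries share in these bins was not tested.

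Outside the enriched bins the balance was towards REST on each of the 19 autosomes. Ring1b had 77.9% of its reads outside enriched or favoured 1-kb bins and REST 93.4%, so at equal totals the ratio of REST to Ring1b there was 1.2. The median 100-kb bin with at least 21 reads had a ratio of 1.19, and 90% of such bins lay between 0.720 and 1.76. Without bins that contain a favoured 1-kb bin the low end of this range moved to 0.864. Of the 21804 bins left, 4 had a ratio of 0.5 or less. This loss of low ratios is built in, because bins with a 1-kb bin favouring Ring1b were left out. A ratio of 2 or more was found in 459 (2.11%), beside 489 of 23486 (2.08%) before that step. These counts use the ratio alone, without the interval of the class rule, and are not counts of bins favouring REST. By that rule 39 bins of 100-kb size favoured REST, and 9 of them contained no 1-kb bin favouring REST.

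**Figure D4:**
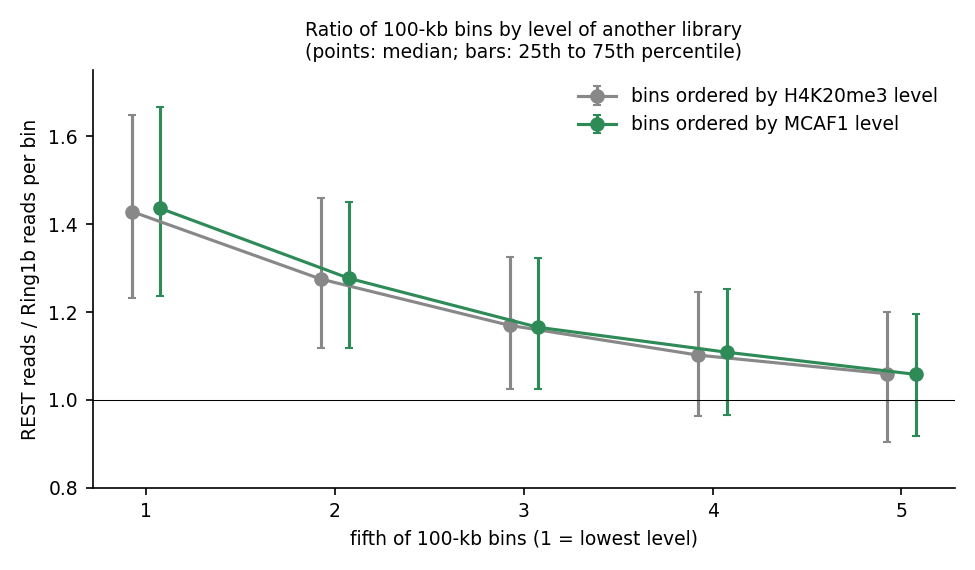
Ratio of REST to Ring1b reads per 100-kb bin (vertical; points are medians, bars the 25th to 75th percentile) in 5 equal groups of the bins ordered by the level of H4K20me3 or of MCAF1 (horizontal, 1 lowest). The median falls from 1.43 to 1.06 along H4K20me3 and from 1.44 to 1.06 along MCAF1.

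Over all 100-kb bins with at least 21 reads, peaks included, the ratio was lower where the other libraries were denser. When the 23486 bins were ordered by H4K20me3 level and divided into 5 groups, the median ratio of REST to Ring1b was 1.43, 1.28, 1.17, 1.10 and 1.06 from lowest to highest. Ordered by MCAF1 it was 1.44, 1.28, 1.17, 1.11 and 1.06. Across bins the Spearman correlation of the ratio was -0.472 with H4K20me3 and -0.470 with MCAF1; the bins share mappability and base composition, which were not measured here, and are not replicates. The median Ring1b level rose from 0.340 to 1.73 times its mean along the H4K20me3 groups and the REST level from 0.490 to 1.76. Bins favouring Ring1b made up 0.0426% of the lowest group and 5.26% of the highest, whereas those favouring REST made up 0.149% and 0.255%.

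The correlation of reads between the 2 libraries rose with bin size. The Spearman correlation of their reads was 0.270 over 1-kb bins, 0.762 over 10-kb bins and 0.937 over 100-kb bins, and Pearson's r, which weights the extreme bins, was 0.422, 0.517 and 0.579. At 1 kb most bins hold 0 to 2 reads and the rank correlation is limited by that. Counting error, which shrinks in larger bins, and mappability were not separated from binding, and no input library was used. Whether the 2 proteins agree more at larger scales was not tested.

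**Figure D5:**
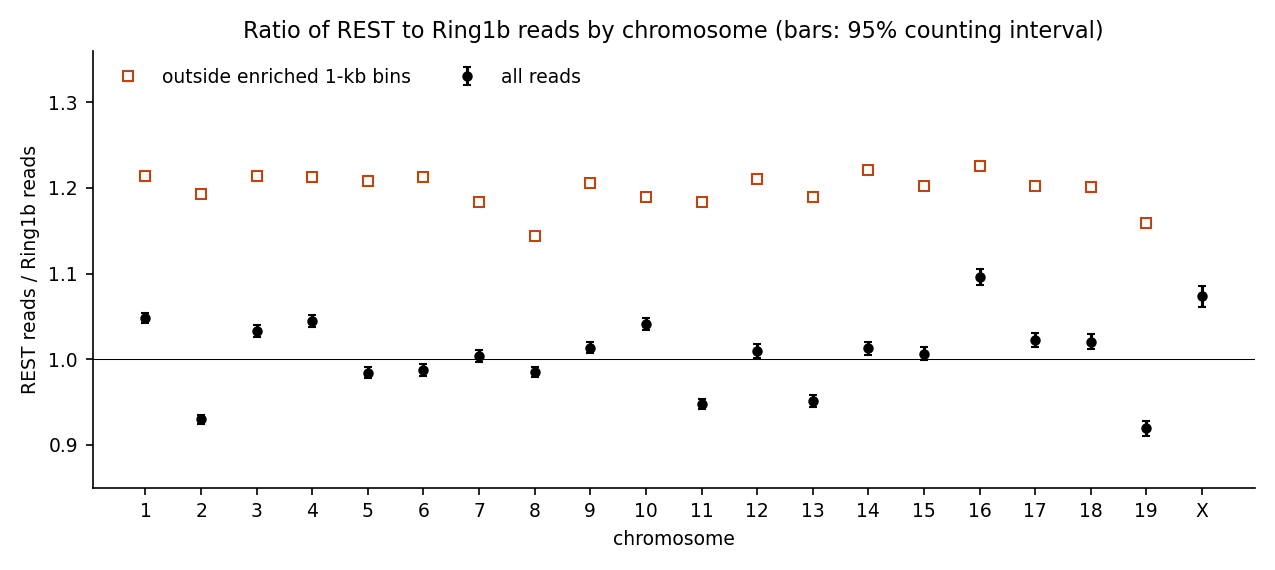
Ratio of REST to Ring1b reads (vertical) for chromosomes 1 to 19 and X (horizontal); filled points use all thinned reads with 95% counting intervals, open squares (chromosomes 1 to 19) leave out enriched and favoured 1-kb bins. With all reads the autosomes lie between 0.919 (chromosome 19) and 1.10 (chromosome 16), and without the enriched bins between 1.14 and 1.23.

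Chromosomes differed little as wholes and more in their peaks. The ratio of REST to Ring1b reads was lowest on chromosome 19 at 0.919 (0.911 to 0.928) and on chromosome 2 at 0.930 (0.925 to 0.935), and highest on chromosome 16 at 1.10 (1.09 to 1.11). Left without enriched bins, the chromosomes drew together, from 1.14 on chromosome 8 to 1.23 on chromosome 16. Ring1b-favoured 1-kb bins were densest on chromosome 2, with 3.40 per covered Mb (3.12 to 3.69), and sparsest on chromosome 16 with 0.976 (0.780 to 1.21). REST-favoured bins were densest on chromosome 4, with 39 bins or 0.286 per Mb (0.204 to 0.392), and sparsest on chromosome 3 with 6 bins or 0.0422 per Mb (0.0155 to 0.0919). The densities of the classes did not follow the same order over chromosomes, although chromosome 11 was high in both, with 3.20 Ring1b-favoured and 0.238 REST-favoured bins per Mb.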

How the data were processed

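The deposited values are signed positions of aligned reads, a list other than counts per feature, with no normalisation. Per the file headers, the authors aligned to the mm8 mouse assembly with Bowtie (its version is not stated in the sources used here), allowing 2 mismatches in the seed and a summed mismatch quality of 70. The headers give a seed of 26 bases for the REST and Ring1b libraries and 36 for the others, and list reads with 1 location apart from those with 2. Positions were read as counting from 0 and are printed counting from 1; the sources do not say which end of a minus-strand read they mark.

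Reads with 1 location on chromosomes 1 to 19 were used. Repeats of a position on a strand were reduced to 1 read, positions were shifted by 75 bp in the 3′ direction, and REST was thinned at random to the Ring1b number. Covered bins are those with a read in at least 1 of the 4 libraries. Intervals are exact (Clopper-Pearson for shares and for the ratios derived from them, Poisson for read numbers). Such intervals hold counting error alone, because PCR copies of a molecule are not independent. The named bins are, at each size, the 10 with the largest ratio for each library by the bound nearest 1 of the interval with an error of 1e-06, and the 10 holding both with the largest smaller fold over background. They were spaced 1 per 50 kb, 200 kb or 1 Mb for bins of 1, 10 and 100 kb, without bins enriched in all 4 libraries, and the text gives the first few or more of each. The libraries, classes and naming rule were chosen with earlier results of these data known. The calling step was tested on simulated data. No annotation or genome of mm8 was used, so the planned gene lists and sequence features were not computed. Alternatives covered thinning, scaling, repeated reads, shift, bin grid, thresholds and background. Software was numpy 2.4.6 and scipy 1.17.1 under Python 3.11.15, with figures by matplotlib 3.10.9.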

Additional observations from a re-analysis of the deposited data

Results flagged for a closer look

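Reads left out of the comparison gave bins of the same classes, and their numbers are listed here where they pass the 3 that a count of 0 allows. Alignments of reads with 2 locations, thinned to 355265 per library, covered 491435 bins of 1 kb and gave 10 favouring REST, 123 favouring Ring1b and 308 holding both. A read with 2 locations can be counted at each of them, so the same read can enter 2 bins. These 3 numbers are therefore not like counts to those from reads with 1 location. On the X chromosome, with 122701 reads of the 2 libraries together, 113947 bins of 1 kb were covered, of which 90 favoured Ring1b and 40 held both, while 1 favoured REST, which does not pass that limit. For chromosomes 1 to 19 the numbers were 295, 4628 and 2127 of 2183993 (favouring REST, favouring Ring1b and holding both). On the X chromosome the ratio of REST to Ring1b reads was 1.07 (1.06 to 1.09).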

How the results depend on the processing

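Of 110 values recomputed for the counts of bins and the spread of chromosome ratios, 90 stayed within 1.5 times the main count or within counting error. With equal background (a median 100-kb ratio of 1.19 set to 1), 112 bins of 10 kb and 13 of 100 kb favoured REST, all of them among the main calls. An interval with an error of 1e-04 gave 580, 412 and 149 bins favouring REST at 1, 10 and 100 kb. A ratio of at least 4 gave 121 (10 kb) and 2 (100 kb) for REST and 188 (100 kb) for Ring1b, a ratio of at least 1.5 gave 99 for REST at 100 kb, and keeping every aligned read gave 61 there. For bins holding both, the autosomal mean as the only background gave 4026 (1 kb) and 2719 (10 kb), enrichment folds of 10, 5 and 3 gave 354, 28 and 74, and leaving out bins enriched in all 4 libraries gave 191 (100 kb). Leaving out enriched and favoured 1-kb bins, added after the data were examined, gave 0 bins favouring REST and 68 favouring Ring1b at 10 kb, and 5 and 12 at 100 kb. Of 630 recomputed ratios of the 90 named bins, 577 stayed inside the 95% counting interval, and no favoured bin changed direction. Most of the 53 that moved were at 100 kb: 14 in bins favouring REST, 14 in bins favouring Ring1b and 12 in bins holding both. No class at 1 or 10 kb had more than 6. A second random seed for thinning kept 289 of 295 (REST), 4610 of 4628 (Ring1b) and 2050 of 2127 (both) bins of 1 kb. No paired analysis was possible because each antibody had 1 library, and for the same reason no library could be left out. Depth limited the 1-kb classes to the 0.868% of bins with at least 21 reads.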
